A study of Mus musculus with 6 samples.

Results

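The prostaglandin and leukotriene enzymes described here are 10 genes, Pla2g4a, Ptgs1, Ptgs2, Ptges, Ptges2, Ptges3, Alox5, Alox5ap, Lta4h and Ltc4s, of the 23282 gene symbols in the expression table. They were chosen by symbol alone, and each had 1 transcript in the table. The cells were peritoneal macrophages elicited with thioglycollate in female C57BL/6 mice, and their poly(A) RNA was sequenced. The age of the mice, and whether cells of several mice were pooled, was not given in the sources used here. All cells received an siRNA for 48 hours: a control siRNA (siCtl), one against Smyd5, a histone methyltransferase, or one against Phf2, a histone demethylase. Each siRNA was followed either by vehicle or by 100 ng/ml KLA (Kdo2-lipid A, a defined form of lipopolysaccharide that acts on the receptor TLR4) for 4 hours. There was 1 library for each of the 6 combinations, so no group has a replicate. The design asks how the members responded to KLA, and whether their levels differed where either histone enzyme was targeted.

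Eicosanoids are lipid mediators made from arachidonic acid. Pla2g4a encodes the cytosolic phospholipase that frees arachidonate from membranes. The cyclooxygenases Ptgs1 and Ptgs2 turn it into prostaglandin H, and the prostaglandin E synthases Ptges, Ptges2 and Ptges3 turn that into prostaglandin E. On the other branch, Alox5 with its helper protein Alox5ap (FLAP) makes leukotriene A, from which Lta4h makes the neutrophil attractant leukotriene B and Ltc4s makes the cysteinyl leukotriene C. Macrophages are a textbook source of both kinds of mediator, and Ptgs2 is the cyclooxygenase classed as inducible.

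The libraries differed in depth. The siCtl-labelled and siSmyd5-labelled libraries held 919338 to 1429509 reads and the siPhf2-labelled ones 577054 (vehicle) and 420149 (KLA). Of these library totals, 66.7% and 71.6% in the siPhf2-labelled libraries came from the ribosomal precursor Rn45s, against 0.621% to 1.195% elsewhere. That left 192420 and 119144 of the siPhf2-labelled reads for all other genes. The totals printed in the column headers fit the siSmyd5-labelled columns, but those of siCtl and siPhf2 gave whole reads only after they were exchanged, so the names or the totals of these 4 columns may be swapped. Under the siCtl label Smyd5 was read 44 times with vehicle and 29 with KLA, under siSmyd5 9 and 20 times, and under siPhf2 3 and 0 times. The siSmyd5 to siCtl ratio was 0.329 (95% counting interval 0.141 to 0.684) with vehicle and 1.10 (0.592 to 2.02) with KLA. Phf2 was read 113 and 120 times under siCtl and 29 and 8 times under siPhf2, a ratio of 2.55 (1.63 to 3.86) with vehicle and 1.08 (0.458 to 2.21) with KLA, so with TMM scaling it was not lower in the libraries labelled siPhf2. Per 1000000 reads of the library total, Rn45s included, it was lower there, at 50.3 and 19.0 against 83.1 and 83.9. Most genes were lower there on that scale, with a median averaged siPhf2 log2 fold of -2.26 over all genes tested. These values therefore do not show a fall particular to Phf2. With a trend on transcript length subtracted, the TMM ratios of siPhf2 to siCtl were 1.76 and 0.795. Under the siSmyd5 label Phf2 was read 52 times with vehicle and 34 with KLA. Its siSmyd5 to siCtl ratio was 0.7409 (0.5229 to 1.038) with vehicle and 0.4534 (0.3003 to 0.6683) with KLA. With the length trend subtracted, these ratios were 0.8772 and 0.5276. The averaged siSmyd5 log2 fold of Phf2 was -0.768 (edgeR adjusted p = 0.0786). Arms are therefore called by their labels throughout. All 10 macrophage markers had reads, summing to 4157 to 5852 RPM (reads per 1000000 of the library size, scaled with edgeR's TMM factors) in each library. Markers of fibroblasts and mesothelium (8 of 8 with reads) summed to 345 to 867 RPM, B cell markers (6 of 6) to 53.2 to 116, platelet markers (5 of 7) to 0 to 57.0, mast cell markers (8 of 9) to 0 to 37.9 and neutrophil markers (8 of 8) to 0 to 25.5.

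The promoters of the members that answered KLA, and of 2 that did not pass the test, are printed so that the results can be read beside the sequence. RefSeq (GRCm38.p6) had a start site for 9 of the 10 members, and the 250 bases before it are given 5' to 3' in the direction of transcription. Capitals mark matches on either strand to short motifs, and overlapping matches run together. The NF-kB pattern searched was 3 G, any 5 bases and 2 C, and the C/EBP pattern was TTNCNNAA. The others were the GC box GGGCGG, the core TGACG of a cAMP response element, the E-box CACGTG and the TATA box TATAAA.
Ptgs2, chr1:150099781-150100030, plus strand: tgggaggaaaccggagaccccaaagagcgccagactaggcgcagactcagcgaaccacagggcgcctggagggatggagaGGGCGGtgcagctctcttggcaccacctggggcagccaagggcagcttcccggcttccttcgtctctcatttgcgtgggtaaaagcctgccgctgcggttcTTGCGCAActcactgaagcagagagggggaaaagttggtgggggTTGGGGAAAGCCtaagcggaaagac
Ptges, chr2:30903298-30903547, minus strand: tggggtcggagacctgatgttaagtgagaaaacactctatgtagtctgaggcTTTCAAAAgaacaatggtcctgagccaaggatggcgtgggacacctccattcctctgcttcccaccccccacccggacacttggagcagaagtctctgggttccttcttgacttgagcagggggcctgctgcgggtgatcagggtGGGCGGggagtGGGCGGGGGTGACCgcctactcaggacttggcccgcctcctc
Pla2g4a, chr1:149961291-149961540, minus strand: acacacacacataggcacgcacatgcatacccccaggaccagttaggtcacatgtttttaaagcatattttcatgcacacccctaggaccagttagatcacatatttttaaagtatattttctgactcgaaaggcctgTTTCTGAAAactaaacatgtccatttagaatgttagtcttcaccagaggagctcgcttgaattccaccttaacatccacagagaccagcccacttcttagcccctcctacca
Ptgs1, chr2:36230176-36230425, plus strand: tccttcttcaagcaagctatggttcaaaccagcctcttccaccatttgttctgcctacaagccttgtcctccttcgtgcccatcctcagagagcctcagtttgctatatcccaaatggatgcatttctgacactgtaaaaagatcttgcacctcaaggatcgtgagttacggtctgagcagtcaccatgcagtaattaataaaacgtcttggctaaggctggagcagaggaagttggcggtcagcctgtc
Lta4h, chr10:93453146-93453395, plus strand: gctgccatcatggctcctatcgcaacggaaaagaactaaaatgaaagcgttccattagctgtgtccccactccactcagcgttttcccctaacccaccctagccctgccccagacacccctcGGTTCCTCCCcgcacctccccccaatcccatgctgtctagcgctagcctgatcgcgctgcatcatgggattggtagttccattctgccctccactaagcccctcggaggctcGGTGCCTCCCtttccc

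In the Ptgs2 promoter the NF-kB letters lay 23 to 14 bases before the start and overlapped a C/EBP match at 25 to 18. A second C/EBP match, at 69 to 62, read the same on both strands, and a GC box lay at 170 to 165. The Ptges promoter held NF-kB letters at 38 to 29, overlapping a GC box at 42 to 37, another GC box at 53 to 48 and a C/EBP match at 198 to 191. Pla2g4a held a pair of overlapping C/EBP matches, at 112 to 105 and 111 to 104, and no NF-kB letters; a second RefSeq start of this gene, not printed, held a TATA box at 200 to 195 and no C/EBP match. Lta4h held NF-kB letters at 128 to 119 and at 16 to 7, while Ptgs1 held none of the 6 motifs. These short patterns are common: of 32851 promoters of this length, 45.8% held the NF-kB letters, 36.8% C/EBP, 32.7% the GC box, 17.8% the cAMP response core, 12.4% the TATA box and 6.02% the E-box. A match describes these letters only, and none of the libraries measured binding. The positions count from the printed RefSeq starts, while the counted transcripts are placed on another genome build. The starts of Ptgs2 and Pla2g4a do not lie equally far apart on both builds. For either gene the printed start may therefore differ from that of the transcript counted, which was not tested. Motifs outside the printed bases may be missed.

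KLA raised the inducible end of the prostaglandin branch. Ptgs2 rose 26.5-fold, Ptges 12.2-fold and the phospholipase Pla2g4a 1.97-fold, averaged over the 3 siRNA arms, while Ptgs1 and both tested leukotriene genes did not pass the test. The averaged effect comes from edgeR's quasi-likelihood fit of siRNA and agent over 7995 genes (mean at least 10 reads), with Benjamini-Hochberg adjustment over all of them. The fit leaves 2 residual degrees of freedom for a gene, and edgeR moderates the error with that of the other tested genes. This error holds any difference of the KLA response between arms. Each SE given is worked back from the test, as the size of the log2 fold over the square root of F. Of the 10 members 6 had enough reads to be tested; 3 of them rose and 0 fell. Of all genes tested, 11.2% rose and 4.6% fell. DESeq2, limma-voom and limma (log2 values) each called 2 of the 6 higher. None of the 4 tools called a member lower, and at an unadjusted p under 0.05 the count of lower members was 0 with each. The median log2 fold of the 6 was 0.57, against -0.03 over all genes tested, which describes only the members deep enough to test. Of the 3 that rose, Ptges passed the read filter through its KLA libraries. The count and the median are therefore not independent of its rise.

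Ptgs2 (NM_011198, mm9 chr1:151947254-151955142, plus strand) showed the widest change of the set. Its vehicle levels were 51.7 (siCtl-labelled), 20.8 (siSmyd5-labelled) and 24.8 (siPhf2-labelled) RPM, from 124, 31 and 6 reads. With KLA they were 929, 823 and 931, from 2061, 1140 and 127 reads. Every KLA library lay above every vehicle library, a separation that 10.7% of all tested genes shared (8.68% separated the other way). The averaged log2 fold was 4.73 (SE 0.26, edgeR adjusted p = 7.36e-11), rank 48 of 7995 genes from the top. It passed the threshold in all 18 alternatives run, with log2 folds of 4.30 to 5.28. In these bulk samples, a change in the number of cells that express a gene and a change in its RNA per cell cannot be told apart.

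Ptges (NM_022415, mm9 chr2:30744991-30758817, minus strand), the inducible synthase that works downstream of Ptgs2, followed the same pattern at a lower level. It had 4.17, 3.36 and 4.14 RPM with vehicle (siCtl-, siSmyd5- and siPhf2-labelled, 10, 5 and 1 reads) and 51.9, 44.7 and 36.7 with KLA (115, 62 and 5 reads). The 2 sets of libraries did not overlap, a separation that 10.7% of all tested genes shared. The gene passed the read filter through its KLA libraries, so its call and rank are not independent of the rise. With no filter on low reads its log2 fold was 3.64. The averaged log2 fold was 3.61 (SE 0.33, edgeR adjusted p = 1.03e-07), rank 92 of 7995, and it passed in all 17 alternatives that tested it (1.62 to 3.65).

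Pla2g4a (NM_008869, mm9 chr1:151676752-151808414, minus strand) moved less, and its call was fragile. It had 13.3, 13.4 and 0 RPM with vehicle (32, 20 and 0 reads) and 28.0, 23.1 and 7.33 with KLA (62, 32 and 1 reads). KLA was higher in the siCtl- and siSmyd5-labelled arms. The siPhf2-labelled arm, with 1 read against 0, was at or under its floor of 3 reads and gave no direction. The averaged log2 fold was 0.98 (SE 0.30, edgeR adjusted p = 0.0328), and the direction was kept in all 17 alternatives that tested it (0.52 to 1.17). It passed in 6 of these 17: among others the call was lost with DESeq2 (adjusted p = 0.447), under limma on log2 values (0.161), and without any 1 of the 4 siCtl- and siSmyd5-labelled libraries (0.614 to 0.836).

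Ptgs1 (NM_008969, mm9 chr2:36085946-36107789, plus strand), the cyclooxygenase classed as constitutive, stayed within a narrow range. Its levels were 25.9, 28.9 and 41.4 RPM with vehicle (62, 43 and 10 reads) and 30.2, 33.2 and 29.3 with KLA (67, 46 and 4 reads). The KLA and vehicle libraries overlapped, and the averaged log2 fold of 0.16 (SE 0.24, edgeR adjusted p = 0.752) was smaller than its error. It was -0.01 with scaling to the library total and -0.021 with limma on log2 values, so its direction was not stable.

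**Figure D1:**
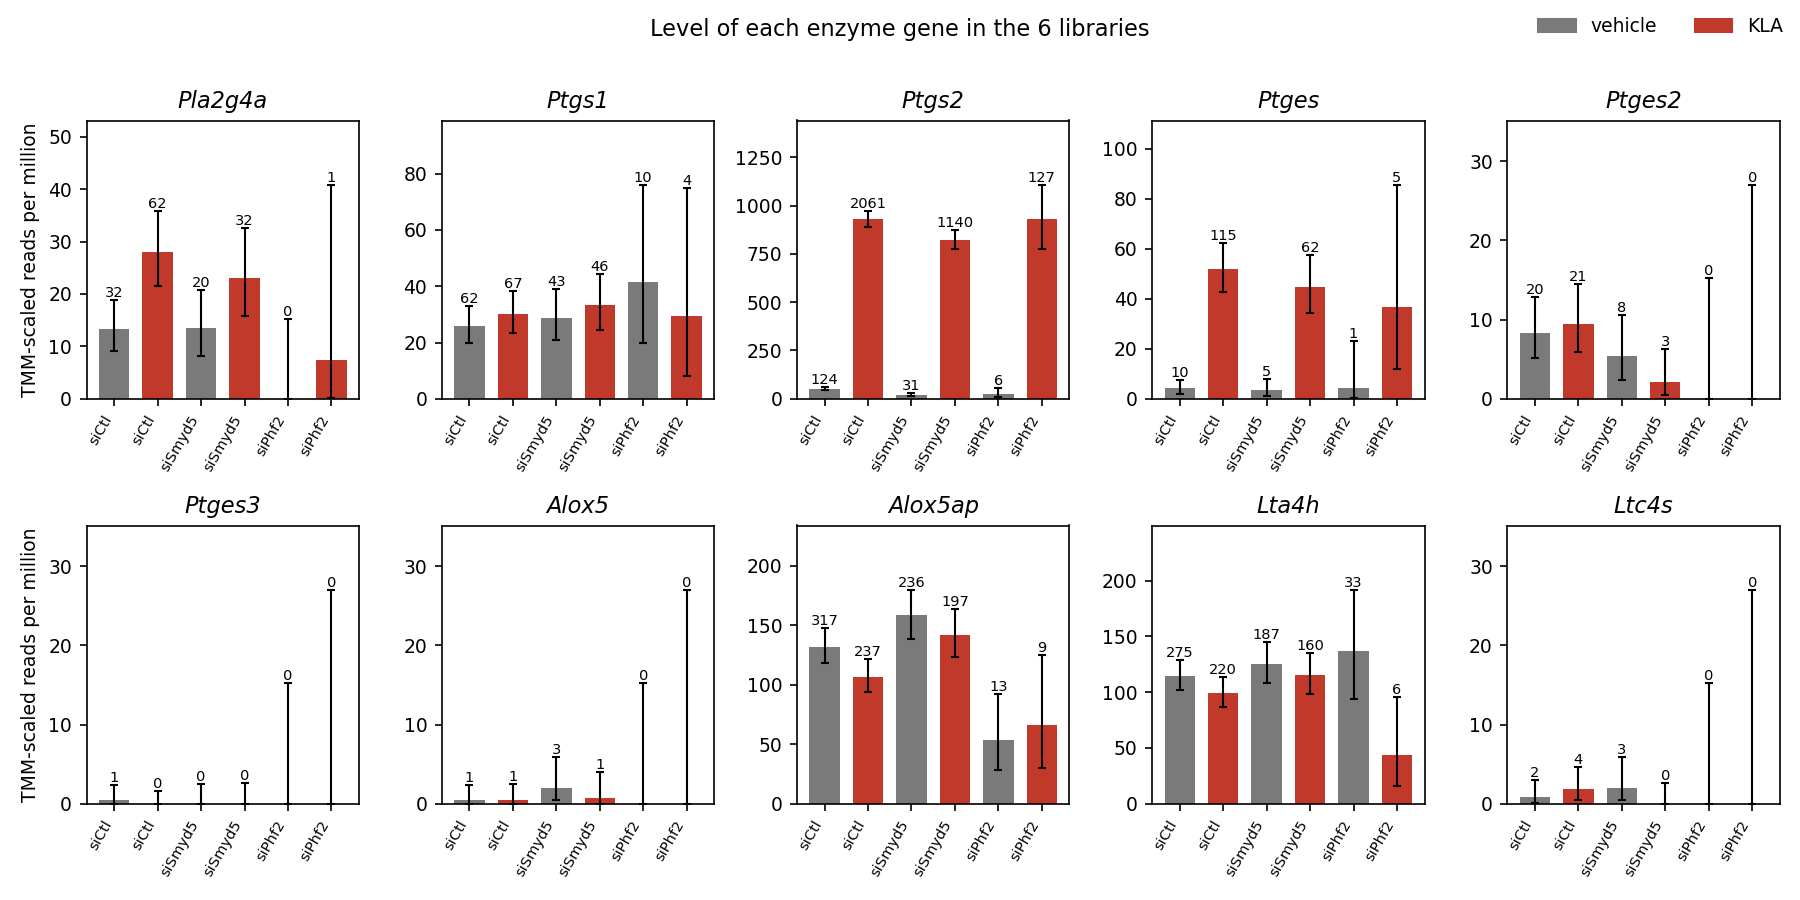
Level of each of the 10 enzyme genes in the 6 libraries, as RPM on a linear axis that starts at 0 and differs between panels; bars are single libraries (grey vehicle, red KLA), black lines are exact 95% Poisson counting intervals and the printed numbers are reads. Ptgs2 and Ptges are higher in all 3 KLA libraries, Ptgs1, Alox5ap and Lta4h overlap between agents, and Ptges3, Alox5 and Ltc4s have at most 4 reads in any library.

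The ratio of the 2 cyclooxygenases was higher with KLA in every arm. Per kilobase of transcript, Ptgs2 stood at 1.38 times Ptgs1 (95% counting interval 1.01 to 1.90) in the siCtl-labelled vehicle library, at 0.497 times (0.303 to 0.808) in the siSmyd5-labelled one and at 0.414 times (0.124 to 1.26) in the siPhf2-labelled one. With KLA the same ratio was 21.2 (16.6 to 27.5), 17.1 (12.7 to 23.5) and 21.9 (8.35 to 81.6). The intervals cover counting error only, and reads made by PCR without molecular identifiers are not independent molecules. Within the siCtl-labelled arm, the rank of Ptgs2 by level per kilobase went from 3717 to 118 of the 7995 tested genes.

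The leukotriene branch was well expressed at 2 of its genes, and neither passed the KLA test. Alox5ap (NM_009663, mm9 chr5:150076634-150099623, plus strand) had 132, 158 and 53.8 RPM with vehicle (317, 236 and 13 reads) and 107, 142 and 66.0 with KLA (237, 197 and 9 reads). The groups overlapped, and the averaged log2 fold was -0.19 (SE 0.19, edgeR adjusted p = 0.605). Lta4h (NM_008517, mm9 chr10:92916141-92947641, plus strand) had 115, 126 and 137 RPM with vehicle (275, 187 and 33 reads) and 99.2, 116 and 44.0 with KLA (220, 160 and 6 reads). KLA was lower than vehicle in each of its arms, but the siSmyd5-labelled KLA library lay above the siCtl-labelled vehicle library. Its averaged log2 fold was -0.31 (SE 0.21, edgeR adjusted p = 0.384). A p that misses the threshold does not show that these levels were equal.

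The other 4 members fell below the read filter and were not tested. Ptges2 (NM_133783, mm9 chr2:32251410-32258260, plus strand) came closest, with 20, 8 and 0 reads with vehicle and 21, 3 and 0 with KLA, a mean of 8.67. Alox5 (NM_009662, mm9 chr6:116360089-116411196, minus strand), the enzyme that Alox5ap serves, had 1, 3 and 0 reads with vehicle and 1, 1 and 0 with KLA. Ltc4s (NM_008521, mm9 chr11:50049974-50051973, minus strand) had 2, 3 and 0 reads with vehicle and 4, 0 and 0 with KLA. Ptges3 (NM_019766, mm9 chr10:127496038-127514310, plus strand), also known as the Hsp90 co-chaperone p23, had 1 read in all, in the siCtl-labelled vehicle library. RefSeq lists a processed pseudogene of it, Ptges3-ps. Whether reads that match such a copy were split or dropped in counting was not tested, and the level of Ptges3 is uncertain. For every gene here, a library with 0 reads allows a level of up to 1.25 RPM in the siCtl-labelled vehicle library and up to 22.0 in the siPhf2-labelled KLA library (3 reads). Markers of mast cells and eosinophils, which are known for cysteinyl leukotrienes, were scarce: of 9 mast cell markers 8 had reads, with Ms4a2 at 0 and a summed level of 0 to 37.9 RPM, and of 7 eosinophil markers 2 had reads.

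Per kilobase, and leaving out Alox5, Ltc4s and Ptges3 with at most 4 reads in any library, the order of levels with vehicle ran from Alox5ap (lowest, median and highest library 63.4, 156 and 187 RPM per kilobase) over Lta4h (56.0, 61.3 and 66.7), Ptgs1 (9.06, 10.1 and 14.5), Ptgs2 (5.03, 6.00 and 12.5), Pla2g4a (0, 4.72 and 4.75) and Ptges2 (0, 2.76 and 4.29) to Ptges (0.921, 1.14 and 1.14). Alox5ap and Lta4h overlapped through 1 siPhf2-labelled library, as did Ptgs1 and Ptgs2 through the siCtl-labelled one, and the 3 lowest genes overlapped through libraries with 0 reads. With KLA, Ptgs2 stood first (199, 225 and 225), above Alox5ap (77.7, 126 and 167) and Lta4h (21.5, 48.5 and 56.4). Ptges (10.1, 12.3 and 14.2), Ptgs1 (10.3, 10.6 and 11.6) and Pla2g4a (2.59, 8.17 and 9.89) followed, of which Ptges and Ptgs1 overlapped.

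Taken by siRNA arm, each KLA library was set against its own vehicle library. These are comparisons of 1 library with 1, without a replicate check, and a gene counts as past the fold when the ratio is at least 2 or at most 0.5 and its 95% counting interval excludes 1. For Ptgs2 the ratio was 18.0 (15.0 to 21.7) in the siCtl-labelled arm, 39.5 (27.7 to 58.5) in the siSmyd5-labelled arm and 37.5 (16.8 to 104) in the siPhf2-labelled arm. The siCtl and siSmyd5 counting intervals did not overlap; whether the response differed between arms was not tested, since the fit leaves no replicate for it. The vehicle libraries differed more than the KLA libraries, which lay between 823 and 931 RPM. Ptges had ratios of 12.4 (6.52 to 26.6), 13.3 (5.42 to 42.5) and 8.86 (0.991 to 419), the last from 5 reads against 1. Pla2g4a had 2.10 (1.35 to 3.32) and 1.72 (0.954 to 3.17) in the siCtl- and siSmyd5-labelled arms, and 1 read against 0 in the siPhf2-labelled arm.

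The siCtl-labelled arm had 3 of the 6 tested members past the fold upwards (7.44% of all tested genes) and 0 downwards (3.19%). In the siSmyd5-labelled arm 2 were higher (9.14%) and 0 lower (4.03%). In the siPhf2-labelled arm Ptgs2 was higher (8.11%) and Lta4h lower (5.8%), at 0.322 (0.110 to 0.779) from 6 reads against 33. Lta4h had ratios of 0.865 (0.721 to 1.04) and 0.920 (0.740 to 1.14) in the deeper siCtl- and siSmyd5-labelled arms. Alox5ap had 0.809 (0.680 to 0.960), 0.897 (0.739 to 1.09) and 1.23 (0.463 to 3.10), and Ptgs1 had 1.17 (0.815 to 1.68), 1.15 (0.742 to 1.79) and 0.709 (0.162 to 2.46), none of them past the fold.

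**Figure D2:**
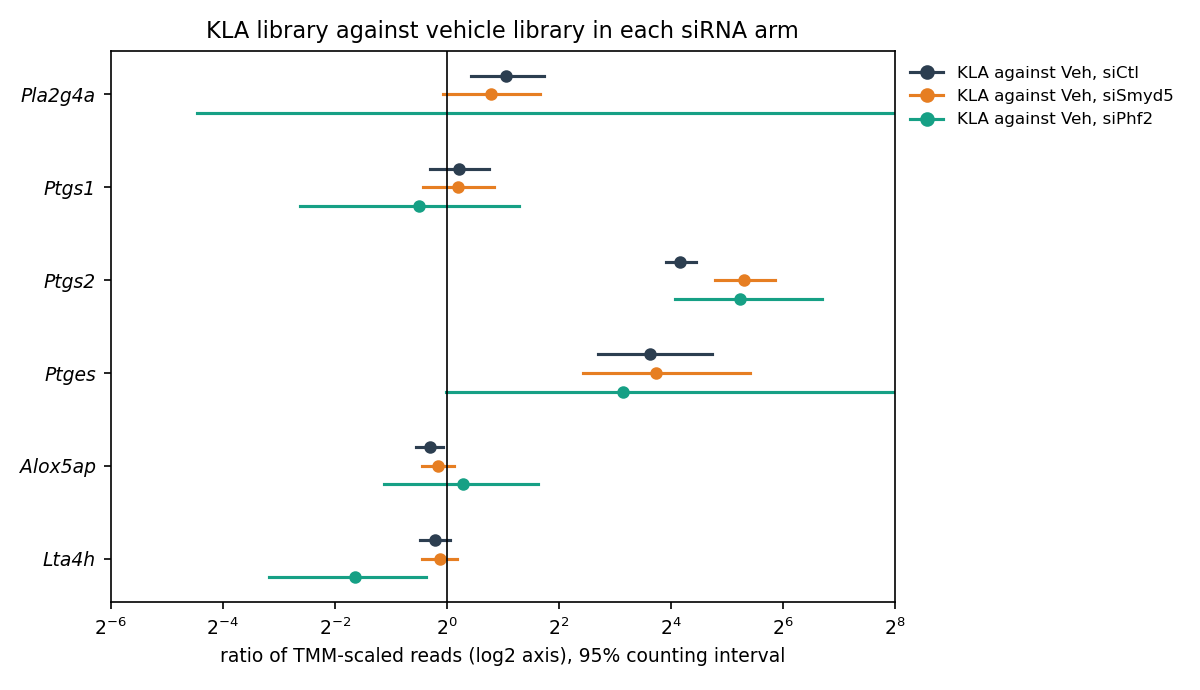
Ratio of the KLA library to the vehicle library in each siRNA arm for the 6 tested members, on a log2 axis; points are single-library ratios of TMM-scaled reads, lines their exact conditional Poisson 95% intervals, cut at the ends of the axis, and a line without a point marks a ratio against 0 reads. Ptgs2 (18.0, 39.5 and 37.5) and Ptges (12.4, 13.3 and 8.86) lie far to the right of 1, while Ptgs1 and Alox5ap lie near it.

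In the siSmyd5-labelled libraries, 0 of the 6 tested members rose and 0 fell against siCtl when averaged over agents, where 2.71% of all genes rose and 3.6% fell (6.32% in either direction). At an unadjusted p under 0.05 the count was 1, Ptgs2, with edgeR, and 0 with each of DESeq2, limma-voom and limma (log2 values). The median log2 fold of the 6 was -0.01, against 0.00 over all genes tested. Ptgs2 had an averaged log2 fold of -0.61 (SE 0.27, edgeR adjusted p = 0.178). Its 2 agents differed in size: the ratio to siCtl was 0.403 (0.262 to 0.601) with vehicle, from 31 against 124 reads, and 0.885 (0.823 to 0.952) with KLA, from 1140 against 2061 reads. The vehicle ratio was past the fold, the 1 member of the 6 to be so downwards (5.87% of all tested genes; 0 upwards, 2.93%), and with KLA 0 members were past it in either direction (4.25% lower, 2.26% higher). Smyd5 itself was lower in the vehicle library and not in the KLA library of this arm, as given above, and its part in the Ptgs2 values was not tested. Transcripts of other lengths also differed between these libraries, and the Ptgs2 ratios were 0.437 and 0.941 after the trend with transcript length was subtracted. With 1 of the 2 siPhf2-labelled libraries left out, whichever it was, the averaged log2 fold of Ptgs2 was -0.38. It passed the test in 2 of 17 alternatives, which were these 2 fits, and not in the fit without both siPhf2-labelled libraries. Over all 17 alternatives the log2 fold of Ptgs2 ran from -1.31 to -0.19.

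None of the other 5 tested members passed the test in the siSmyd5-labelled libraries. Alox5ap had ratios of 1.20 (1.01 to 1.42) with vehicle and 1.33 (1.10 to 1.61) with KLA, and of 0.859 and 0.968 after the length trend was subtracted, which lie on the other side of 1; its transcript, at 849 bases, is the shortest of the 6. Its averaged log2 fold was 0.33 (edgeR adjusted p = 0.328), and it passed the test in 3 of 17 alternatives. Among them were the fits with 1 siPhf2-labelled library left out. Averaged log2 folds were 0.15 for Ptgs1, -0.22 for Ptges, -0.16 for Pla2g4a and 0.18 for Lta4h, with edgeR adjusted p of 0.680 to 0.796. Ptges2, with too few reads to test, had 3 reads with KLA against 21 in siCtl, a ratio of 0.229 (0.0437 to 0.766), and 8 against 20 with vehicle, 0.644 (0.245 to 1.53). Summed platelet markers were 45.0 and 57.0 RPM in the siSmyd5-labelled vehicle and KLA libraries and 23.8 and 28.9 in the siCtl-labelled ones, with 5 of 7 markers read and Ppbp and Gp9 at 0. Summed neutrophil markers (8 of 8 with reads) were 25.5 and 23.1 against 15.0 and 9.02. The part of these cells in the member values was not tested.

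In the siPhf2-labelled libraries, Alox5ap fell against siCtl and the other 5 tested members did not pass the test. Of all genes tested, 4.45% fell and 8.12% rose. At an unadjusted p under 0.05 the count of lower members was 2, Pla2g4a and Alox5ap, with edgeR. It was the same 2 with limma-voom and with limma (log2 values), and 0 with DESeq2. The averaged log2 fold of Alox5ap was -1.05 (SE 0.34, edgeR adjusted p = 0.0479), from 13 reads against 317 with vehicle, a ratio of 0.407 (0.214 to 0.706), and from 9 against 237 with KLA, 0.618 (0.279 to 1.19). The call was lost in 11 of 16 alternatives, among them DESeq2 (adjusted p = 0.235) and each fit without a siCtl- or siSmyd5-labelled library or without the siPhf2-labelled vehicle library (adjusted p = 0.201 to 0.532). If the siCtl and siPhf2 names are exchanged, the value is 1.05, with the sign turned. That fit is 1 of the 5 alternatives in which Alox5ap passed, so not all of these 5 showed a fall. The depth of these libraries, their Rn45s share and the fibroblast and mesothelium markers (435 and 345 RPM against 844 and 867 in siCtl) moved with the same contrast, and their part in the result was not tested.

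Values in the siPhf2-labelled libraries depended on the scaling. The median log2 fold over all genes was -0.13 with TMM, -2.26 with scaling to the library total and -0.60 with scaling to the total without Rn45s. Relative to that median, Alox5ap was at -0.93 to -0.92 under these scalings and with DESeq2's size factors, Ptgs1 was at 0.54 to 0.55 and Lta4h at -0.02 to -0.01. Pla2g4a had 0 and 1 reads in the siPhf2-labelled libraries against 32 and 62 in siCtl. The counting interval of its ratio was 0 to 1.21 with vehicle. With KLA the ratio was 0.262 (0.00654 to 1.52). Neither library alone showed a difference at this depth. Pla2g4a passed the test in 3 of 14 alternatives. Its averaged log2 fold of -2.78 (edgeR adjusted p = 0.106) was fitted to 1 read in that arm.

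Ptgs2 stood at a ratio of 1.0 (0.831 to 1.20) with KLA, from 127 against 2061 reads, and at 0.480 (0.173 to 1.08) with vehicle. After the trend with transcript length was subtracted, the Ptgs2 ratios were 0.770 with KLA and 0.368 with vehicle. Its averaged log2 fold was -0.34 (edgeR adjusted p = 0.525). Ptges had ratios of 0.993 (0.0229 to 6.98) with vehicle and 0.707 (0.225 to 1.70) with KLA, intervals too wide at 1 and 5 reads to show a difference at this depth. Ptgs1 had 1.60 (0.732 to 3.15) and 0.971 (0.257 to 2.60). Lta4h had 1.19 (0.804 to 1.71) with vehicle and 0.444 (0.161 to 0.981) with KLA, the latter past the fold from 6 reads. Past the fold downwards were thus 1 member with vehicle (Alox5ap, against 7.54% of all tested genes) and 1 with KLA (Lta4h, against 5.63%), and 0 upwards (11.1% and 8.03%). The median averaged log2 fold of the 6 was -0.38.

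**Figure D3:**
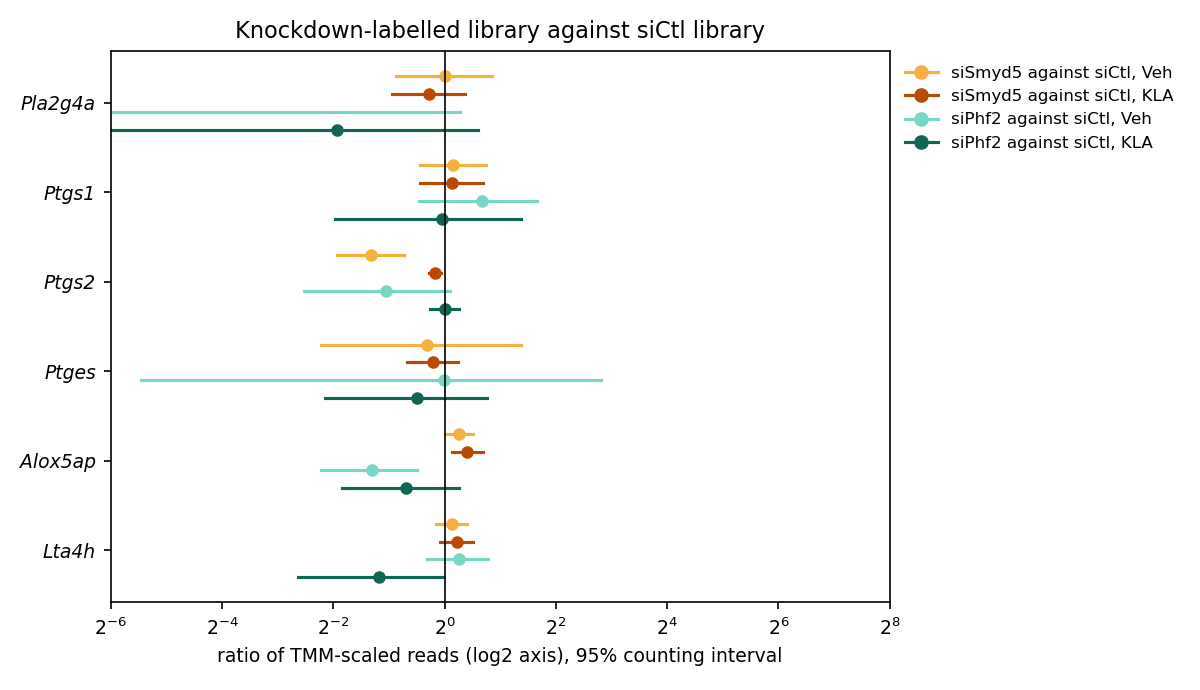
Ratio of each siSmyd5- or siPhf2-labelled library to the siCtl-labelled library of the same agent for the 6 tested members, on a log2 axis; points are single-library ratios of TMM-scaled reads and lines their exact conditional Poisson 95% intervals, cut at the ends of the axis. Ptgs2 lies at 0.403 and 0.480 with vehicle and at 0.885 and 1.0 with KLA, and Alox5ap at 0.407 and 0.618 in the siPhf2-labelled libraries.

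Around the 10 members, 70 other eicosanoid genes were in the table, and 33 had enough reads to test. KLA raised 5 of the 33 and lowered 0, with a median log2 fold of -0.04; at an unadjusted p under 0.05, the lower genes numbered 4 by edgeR, 2 by DESeq2, 4 by limma-voom and 2 by limma (log2 values). Of all genes tested 11.2% rose, with a median of -0.03. Of the leukotriene and resolving lipid receptors 2 of 2 tested rose (9 in the table), namely Gpr132 and Cmklr1. The leukotriene receptors Ltb4r1, Ltb4r2, Cysltr1 and Cysltr2 had at most 12 reads in any library and were not tested. Of the prostanoid receptors 0 of 3 rose, and of the other prostanoid synthases 0 of 4. Differences between these lists were not tested. Gpr132 (12, 5 and 3 vehicle reads) and Lpcat2 (11, 13 and 2) passed the read filter through their KLA libraries. Of the phospholipases and genes of arachidonate handling 2 of 12 rose, and of the genes of breakdown, transport and cysteinyl leukotriene processing 1 of 12. Of the 6 other lipoxygenases 0 could be tested, and 4 had 0 reads in every library.

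Gpr132, a receptor for lysophospholipids and oxidised fatty acids, had 5.00, 3.36 and 12.4 RPM with vehicle (siCtl-, siSmyd5- and siPhf2-labelled) and 15.3, 18.8 and 36.7 with KLA (log2 fold 1.87, SE 0.39, edgeR adjusted p = 0.00190). Lpcat2, which remodels membrane phospholipids and makes platelet-activating factor, had 4.59, 8.73 and 8.28 with vehicle and 15.3, 20.2 and 51.3 with KLA (log2 fold 1.59, SE 0.37, edgeR adjusted p = 0.00435). Cmklr1, the chemerin receptor, had 12.9, 2.0 and 12.4 with vehicle and 28.0, 11.6 and 73.3 with KLA (log2 fold 1.49, SE 0.35, edgeR adjusted p = 0.00453). Of these 3, Cmklr1 alone overlapped between agents, through its siSmyd5-labelled KLA library. Abcc1, a transporter that exports leukotriene C, had 73.0, 51.7 and 103.5 with vehicle and 174, 106 and 279 with KLA (log2 fold 1.21, SE 0.19, edgeR adjusted p = 7.87e-05). Acsl4, which couples arachidonate to coenzyme A, had 73.4, 69.8 and 57.9 with vehicle and 136, 146 and 117 with KLA (log2 fold 0.97, SE 0.19, edgeR adjusted p = 0.000717). Neither of these 2 overlapped between agents, a separation shared by Gpr132, Lpcat2 and 10.7% of all tested genes. For Abcc1 it was within counting error. Its siSmyd5-labelled KLA library stood at 106.1 RPM and its siPhf2-labelled vehicle library at 103.5 (25 reads, counting interval 67.0 to 153). Abcc1 passed in 17 of 18 alternatives, while Gpr132, Lpcat2, Cmklr1 and Acsl4 lost the call in 5 or 6 alternatives each, among them fits without single siCtl- or siSmyd5-labelled libraries (largest adjusted p over the alternatives 0.468).

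Against siCtl, Lpcat3, which puts polyunsaturated chains into phosphatidylcholine, rose in the siSmyd5-labelled libraries (log2 fold 0.82, edgeR adjusted p = 0.0339, passed in 5 of 16 alternatives) and Cmklr1 fell (-1.63, edgeR adjusted p = 0.0265, passed in 8 of 15). Cmklr1 stood at 3 reads against 31 with vehicle and 16 against 62 with KLA, ratios of 0.156 (0.0305 to 0.50) and 0.413 (0.222 to 0.724). In the siPhf2-labelled libraries Mgll, a lipase that frees arachidonate from monoacylglycerol, rose (log2 fold 2.73, edgeR adjusted p = 1.39e-05) with 149 and 169 RPM (36 and 23 reads) against 28.8 and 17.1 in siCtl. Abcc4, a prostaglandin exporter, also rose (1.66, edgeR adjusted p = 0.0168, passed in 8 of 15 alternatives). Both turn sign if the siCtl and siPhf2 names are exchanged, and Abcc4 was at -0.48 with scaling to the library total.

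**Figure D4:**
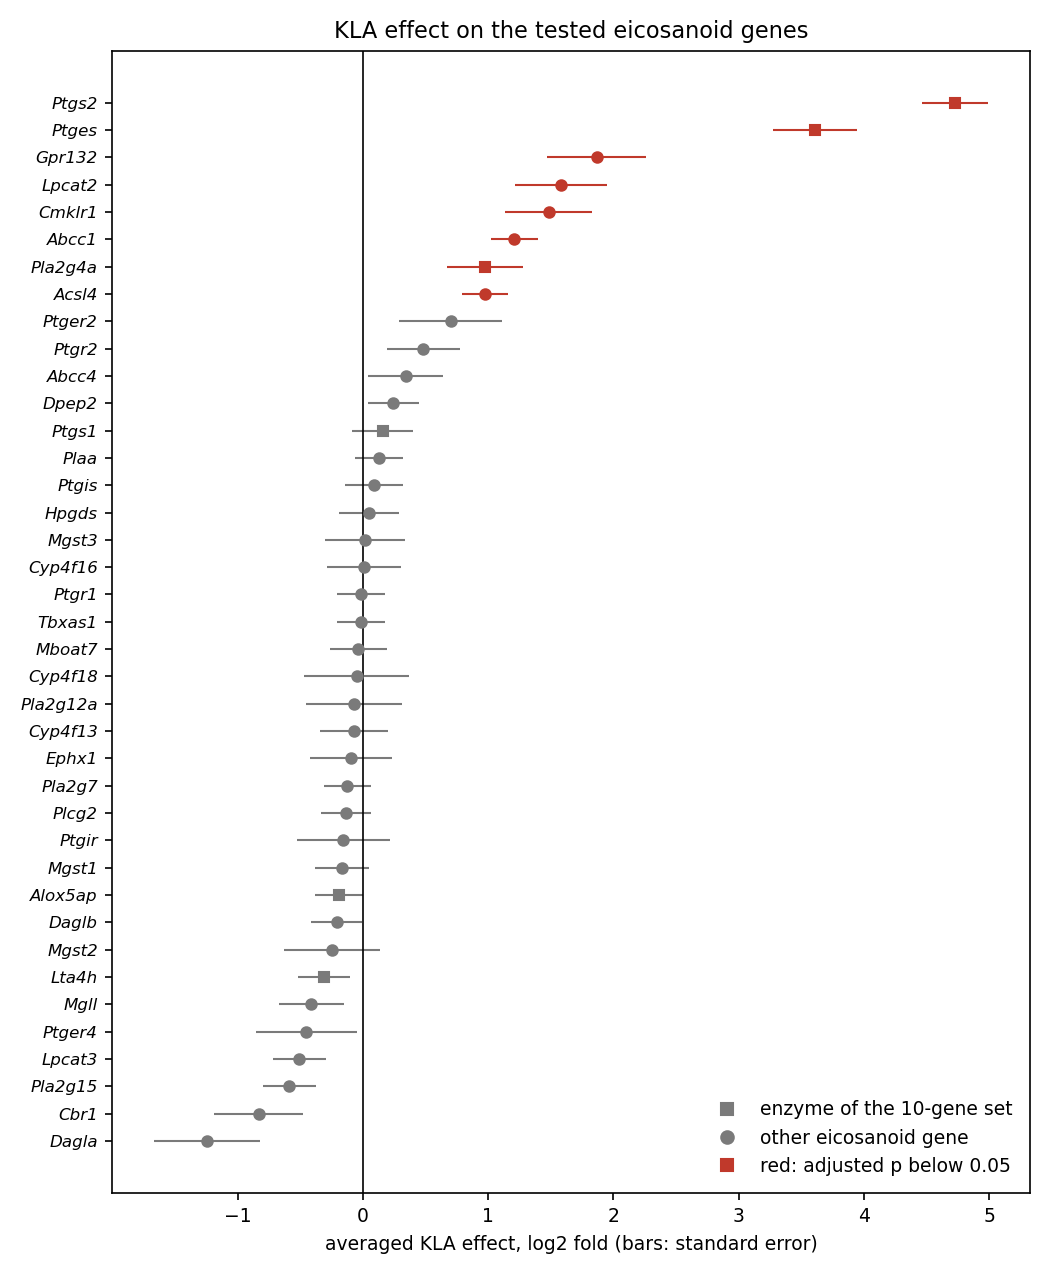
Averaged KLA effect (log2 fold, linear axis) of the 6 tested members (squares) and the 33 other tested eicosanoid genes (circles), in order of size. Horizontal bars are standard errors worked back from the edgeR test, and red marks an adjusted p below 0.05. Ptgs2 (4.73) and Ptges (3.61) lie apart from the other red genes, which run from 0.97 to 1.87.

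The 5 genes whose levels followed Ptgs2 most closely over the 6 libraries, among 1814 with a mean of at least 100 reads, were Ccrn4l (Pearson r = 0.9986 of log2 levels), Ptpn12 (0.9968), Ell2 (0.9959), Stx11 (0.9891) and Slc44a1 (0.9878). Their swings were smaller: Ccrn4l went from 32.1, 15.4 and 12.4 RPM with vehicle to 210, 227 and 220 with KLA. For Alox5ap they were Mdh2 (0.9976), Vps29 (0.9953), Atp6ap1 (0.9875), Pcbp2 (0.9858) and Smpdl3a (0.9832), all low in the 2 siPhf2-labelled libraries, as Alox5ap was. Mdh2, for example, had 57.9 and 66.0 RPM there and 111 to 150 in the other 4. These correlations describe 6 libraries that also differ in depth and in Rn45s share.

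Ptgs2 and Pla2g4a, 2 of the 3 members that rose, are neighbours on mm9 chromosome 1. Their starts lie 138840 bases apart and point away from each other. The 1 gene of the table between them, 7530420F21Rik (chr1:151923791-151946896, minus strand), starts 358 bases before Ptgs2, runs the other way and had 2 reads in all. The difference between their KLA log2 folds, 4.73 and 0.98, was not tested.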

How the data were processed

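Poly(A) RNA from 6 mouse macrophage libraries, 1 per siRNA and agent by the sample titles and agent labels, was analysed. The values are a signal deposited by the authors, tags per RefSeq transcript scaled to 10000000 tags per library, per the file headers; HOMER and mm9 are named in the submitters' processing notes, and the aligner and the handling of strand were not given in the sources used here. Whole reads were recovered from the header totals (100% of values within 0.02, 4 columns with exchanged totals, names kept as printed), so a count model was run on a scaled signal. Each symbol took its transcript with the highest mean. The main fit was edgeR 4.0.16 in R 4.3.3 (TMM, siRNA plus agent, mean of at least 10 reads, adjusted p below 0.05, 2-sided); RPM use TMM-scaled library sizes. Depth is given with the results. Nothing says that libraries came from separate cultures, and p-values then reflect only how these libraries vary, which may be technical. Library pairs were compared by exact conditional Poisson 95% intervals, which cover counting error only. Alternatives used DESeq2 1.42.0 and limma 3.58.1 (log2 with 15.4 added), other scalings and filters, libraries left out and exchanged names. The members and lists were chosen with earlier results of these data known. Named were all members, other eicosanoid genes past the threshold, and the 5 genes most like Ptgs2 and Alox5ap.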

Additional observations from a re-analysis of the deposited data

How the results depend on the processing

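No paired analysis was possible because the labels carry no replicate numbers and each group is 1 library. In the siPhf2-labelled libraries, the members other than Ptgs2 had at most 33 reads, and fits that leave out 1 library leave 1 residual degree of freedom and assume that the lone library of an arm varies like the others. Of the log2 folds of members and named genes, 336 kept their direction and side of the threshold, 71 lost the call, 11 gained it and 23 turned sign; causes were not tested.

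The number of genes called for KLA (1260) was 685 with at least 50 reads, 607 with DESeq2, 403 with limma on log2 values, 234 with agent alone, 1999 without both siPhf2-labelled libraries and 429 to 2118 with 1 library left out. Members that rose with KLA were 1 instead of 3 with at least 50 reads, where Ptges and Pla2g4a were not tested. For siSmyd5 (505) the count was 222 with scaling to the library total, 101 with at least 50 reads, 14 with DESeq2, 17 with limma-voom, 0 with limma on log2 values, 1 with transcripts summed, 2075 without both siPhf2-labelled libraries, 2026 with names exchanged and 1 to 2311 with 1 library left out. Members that rose or fell with siSmyd5 were 0 to 1 each with 1 library left out (Alox5ap and Ptgs2, without either siPhf2-labelled library), and 1 rose with names exchanged. For siPhf2 (1005) the count was 7385 with scaling to the library total, 1710 with the total without Rn45s, 485 with DESeq2, 642 with limma on log2 values, 583 with transcripts summed and 215 to 1535 with 1 library left out. Members that fell with siPhf2 (1) were 6 with the library total, 2 with the total without Rn45s, 0 to 1 with 1 library left out, and 0 with DESeq2 size factors, at least 50 reads, DESeq2, limma on log2 values, transcripts summed or names exchanged, where 1 rose.

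Members past the fold were 2 instead of 0 for siSmyd5 with KLA when names were exchanged. For siPhf2 with vehicle they were 5 with the library total, 2 with the total without Rn45s and 2 with the length trend subtracted, instead of 1. For siPhf2 with KLA they were 6 and 2 with these totals, instead of 1.

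With names exchanged, the siSmyd5 log2 fold was -0.27 for Ptgs1, 0.20 for Ptges and 2.62 for Pla2g4a, and the siPhf2 log2 fold turned sign by construction: -0.42 for Ptgs1, 0.34 for Ptgs2, 0.42 for Ptges, 2.78 for Pla2g4a, 1.05 for Alox5ap, 0.14 for Lta4h, -2.73 for Mgll and -1.66 for Abcc4. The ratio to siCtl was then 2.46 for Alox5ap with vehicle and 2.26 for Lta4h with KLA. Scaling to the library total turned the KLA log2 fold of Ptgs1 to -0.01, and limma on log2 values to -0.021; it turned the siPhf2 log2 fold of Ptgs1 to -1.72 and of Abcc4 to -0.48, and the total without Rn45s turned that of Ptgs1 to -0.054. With 1 library left out, the siSmyd5 log2 fold ran from -0.33 to 0.066 for Pla2g4a (above 0 without siSmyd5 KLA) and from -0.10 to 0.41 for Lta4h (-0.003 without siCtl vehicle, lowest without siSmyd5 KLA). The siPhf2 log2 fold ran from -0.048 (without siPhf2 vehicle) to 0.656 for Ptgs1, from -1.09 to 0.03 (without siCtl vehicle) for Ptgs2, from -0.51 to 0.002 (without siPhf2 KLA) for Ptges and from -1.20 to 0.25 (without siPhf2 KLA) for Lta4h.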
